A study of Mus musculus with 3 samples.

Results

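Mitochondrial respiratory chain and biogenesis genes were described across 3 cultures of STHdh cells, with 50 of 51 listed genes measured among 22180 genes in all. The list was set by name and not by a rule on measured values, though it was chosen with earlier results of these data known. It holds nuclear-encoded subunits of respiratory complexes I to IV, cytochrome c, the coactivators and nuclear factors that control them, the transcription factors of mitochondrial DNA and the uncoupling protein gene Ucp2. Ucp2 was the 1 gene with no row of its own and has no value here. Averaged over the arrays, 45 of the 50 genes were no dimmer than the median gene (log2 6.55). None of the 51 names is a subunit of complex V, which was therefore read from a separate list.

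STHdh cells are immortalized striatal cells from knock-in mice (strain given as C57BL6/J) whose Htt exon 1 was humanized and carries 7 (STHdhQ7/Q7) or 111 (STHdhQ111/Q111) glutamine repeats. Q7-Control and Q111-Control are cells of each line with a control morpholino oligo, and Q111-ASOs is STHdhQ111/Q111 with a pair of morpholino antisense oligos (I2E3 and E3I3, 3 μM of each) against the splice sites of Rest exon 3. All cultures received 6 μM of the delivery reagent Endo-Porter, grew with G418 and were harvested after 48 h. Total RNA of 1 culture per condition was read on 1 Affymetrix Mouse Gene 2.0 ST array each, and the deposited values are log2 signals. Each genotype is 1 cell line, so the repeat length and any other difference between the lines cannot be told apart. With 1 array per condition no replicate error could be had and no test was made, which limits how precisely any difference is known. Both comparisons use the Q111-Control array and share its error. Where 3 signals are given, their order is Q7-Control, Q111-Control, Q111-ASOs.

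Array medians over 41345 rows lay between 5.97 and 6.03 on the log2 scale. Rest was at 9.16, 9.16 and 9.33, and Htt at 9.85, 9.05 and 8.97. The Rest signal covers the whole gene and does not read exon 3 alone, so it does not check the treatment. Of 7 neural progenitor markers measured, Q7-Control exceeded Q111-Control by over 2-fold for 5 and the reverse held for 0, while of 8 fibroblast or mesenchymal markers Q111-Control exceeded Q7-Control by over 2-fold for 3 and the reverse held for 0. Of 12 striatal lineage markers measured, 6 had a mean signal no lower than the median gene, and Q7-Control was over 2-fold lower for 2, Penk and Ebf1, and over 2-fold higher for 0. Meis2 was 1.62-fold higher in Q7-Control, and the dopamine receptor genes Drd1 and Drd2 were equal on the 3 arrays at 4.04 and 5.02. In bulk RNA of this kind, fewer cells of a type and less RNA per cell cannot be told apart. The part of these differences between the lines in the values below was not tested.

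Oxidative phosphorylation is carried out by complexes of the inner mitochondrial membrane. Complex I takes electrons from NADH and complex II from succinate, complex III passes them to cytochrome c, and complex IV hands them to oxygen. Most subunits are encoded in the nucleus and a few in mitochondrial DNA, so the chain draws on both genomes. The coactivators encoded by Ppargc1a and Ppargc1b act with NRF1, GABPA and ERRα on nuclear genes, among them Tfam, Tfb2m and Polrmt, whose products transcribe mitochondrial DNA. Striatal neurons depend heavily on respiration, and PPARGC1A has been widely studied in Huntington's disease.

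No member differed by more than 2-fold, the criterion the study used, in either comparison. For Q7-Control against Q111-Control, 0 of 50 were over 2-fold higher and 0 over 2-fold lower, where 2.53% and 2.03% of all genes were. For Q111-ASOs against Q111-Control the counts were also 0 and 0, against 0.104% and 0.0271% of all genes, shares so low that a count of 0 among 50 genes says little about the members. At 1.5-fold, 1 member, Tfb2m, was higher in Q7-Control by its brightest row (5.2% of all genes) and 0 were lower (3.88%), while 0 were counted in either direction with ASOs (0.455% and 0.153%). The brighter 11090 genes (median signal or above), where 45 of the members lie, held 3.98% over 2-fold higher and 3.61% lower in Q7-Control, and 8.1% and 6.73% at 1.5-fold. With ASOs these shares were 0.207% and 0% at 2-fold and 0.595% and 0.0902% at 1.5-fold. The median log2 difference of the 50 members was 0.00 in both comparisons, as it was over all genes. In Q7-Control 22 members were higher than in Q111-Control, 12 lower and 16 exactly equal, and with ASOs 14 were higher, 11 lower and 25 equal. Over all genes the shares for Q7-Control were 29.7% higher, 26.9% lower and 43.4% equal, and with ASOs 27.7%, 22.8% and 49.4%. These splits depend on the scaling. Centring the arrays on their medians adds a constant that makes tied genes higher by construction, and gave 41 members higher and 9 lower in both comparisons, where 78.9% and 81.4% of all genes were then higher. Quantile normalization gave 30 members higher and 20 lower between the lines (69.9% of all genes higher) and 20 and 30 with ASOs (56.7%).

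**Figure D1:**
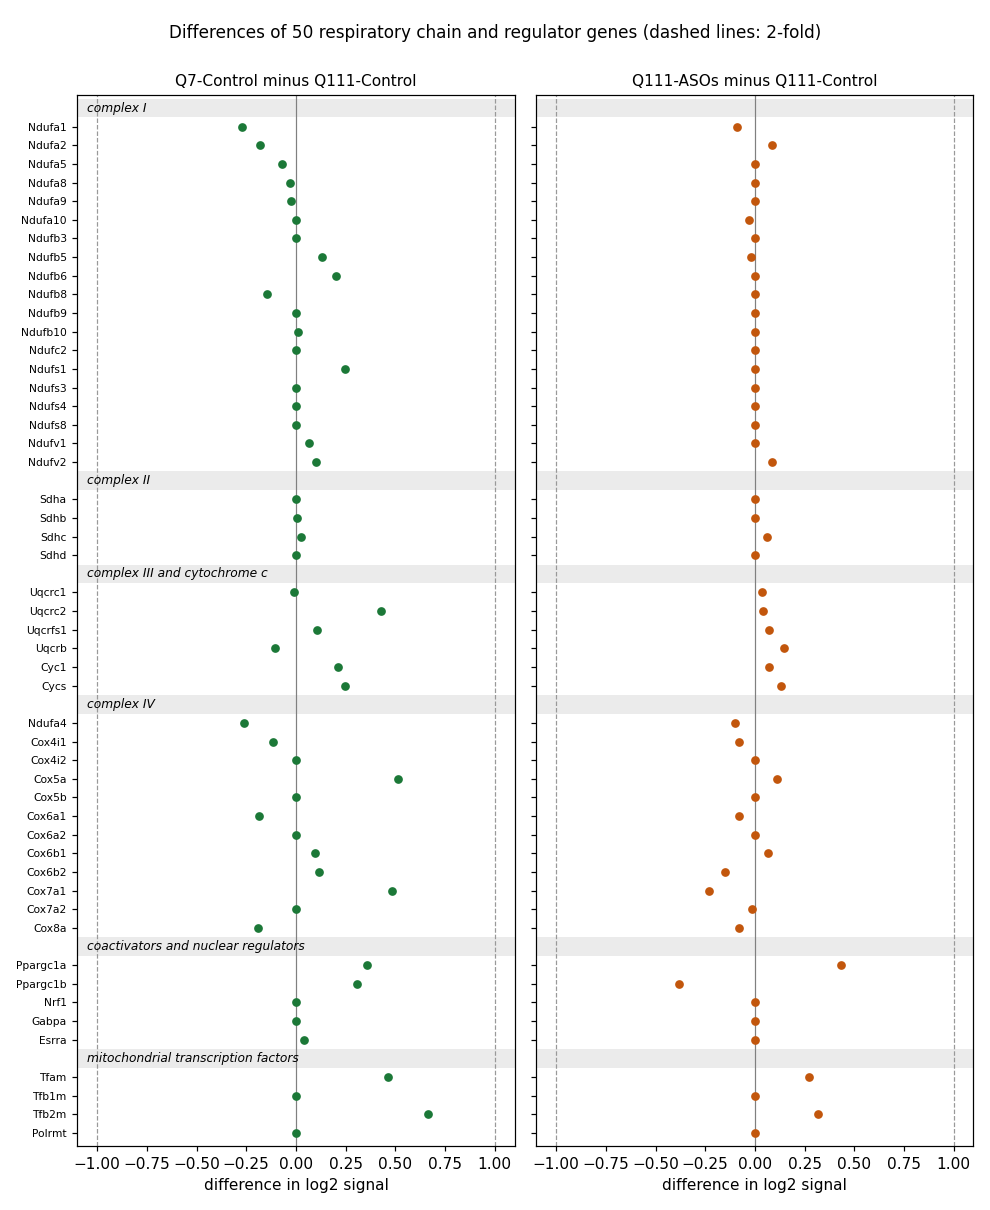
Difference in log2 signal (x axis) of each of the 50 measured members (rows, by complex or role) for Q7-Control minus Q111-Control (left) and Q111-ASOs minus Q111-Control (right), 1 array per condition. All points lie inside the dashed 2-fold lines, from -0.27 to 0.67 on the left and from -0.38 to 0.43 on the right.

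Exact equality of the 3 arrays was found for 14 of the 50 members (28.0%), against 35.5% of all genes and 19.0% of the brighter genes. Such ties are in the deposited values themselves, and how the summarization made them was not tested. The size of a difference was read against the spread over all genes. Its SD over genes was 0.50 for Q7-Control minus Q111-Control and 0.13 for Q111-ASOs minus Q111-Control, and over the members 0.20 and 0.12. The SD is set by genes in the tails. The median absolute difference was larger for the members, at 0.069 against 0.033 for all genes between the lines, and 0.007 against 0.002 with ASOs. The upper quartile of the signed difference between the lines was 0.11 for the members and 0.04 for all genes. These values are not given for the brighter genes, where 45 of the members lie. Whether members differ more than genes of like signal by these measures was not tested. Exactly equal between the lines were 43.4% of all genes, 24.5% of the brighter genes and 32.0% of the members. At 1.25-fold, 5 of the 45 members among the brighter genes were higher in Q7-Control and 0 lower, against 14.8% and 13.5% of the brighter genes.

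**Figure D2:**
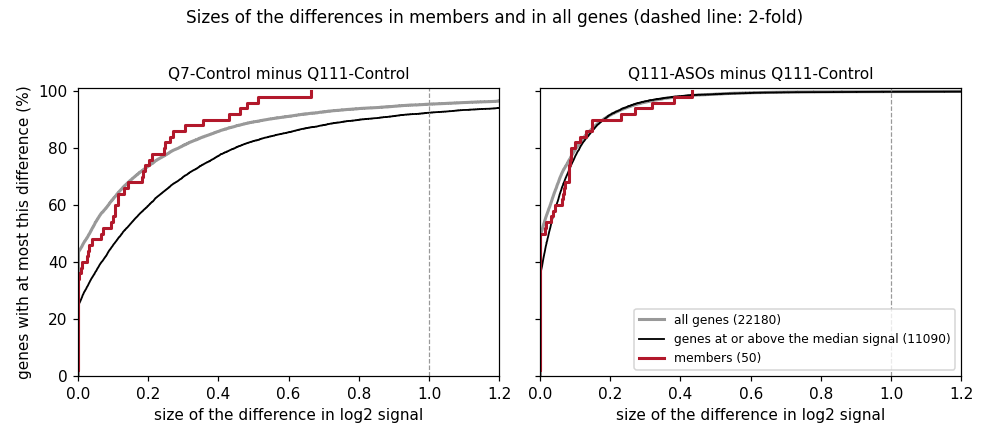
Cumulative percentage of genes (y axis) with at most a given size of difference in log2 signal (x axis), for 50 members, 22180 genes and the brighter 11090 genes, with the comparison of the lines in the left panel and that of the treatment in the right. The curve of the members ends at 0.67 in the left panel and at 0.43 in the right.

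Among the genes that serve transcription of mitochondrial DNA, values differed between genes and between rows of a gene. Tfb2m, whose product melts the promoter for the mitochondrial RNA polymerase, was read at log2 9.06 (Q7-Control), 8.39 (Q111-Control) and 8.71 (Q111-ASOs). This is 1.59-fold for Q7-Control over Q111-Control and 1.247-fold for Q111-ASOs over Q111-Control, with the treated culture between the controls. Tfb2m has 3 rows on the array, and those not kept had differences of 0.00 and 0.09 between the lines and 0.00 with ASOs. The mean of its rows gives 0.25 and 0.11 in place of 0.67 and 0.32, so its value rests on the row with the highest signal. With the mean of rows no member is over 1.5-fold higher in Q7-Control, 5 are over 1.25-fold higher without Tfb2m, and the highest member is Cox5a. Tfam, which packages mitochondrial DNA and bends its promoters, was read by 1 row with 9.23, 8.77 and 9.04. Its difference was 0.46 (1.38-fold) between the lines and 0.27 (1.21-fold) with ASOs, and Q111-Control was again the lowest of the 3 arrays. Polrmt, the mitochondrial RNA polymerase itself, was equal at 9.42 on all arrays. Tfb1m, a methyltransferase of mitochondrial ribosomal RNA, had 9.08 on each array. For this group of 4 genes the median difference was 0.23 between the lines and 0.14 with ASOs, beside 0.00 over all genes. It shifted with how single genes were treated. Without Polrmt, which was equal on all 3 arrays, it was 0.46 and 0.27, and with the mean of the Tfb2m rows it was 0.13 and 0.05.

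Both coactivators had a higher signal in Q7-Control than in Q111-Control, but they lay on opposite sides of it with ASOs. Ppargc1a, which encodes the inducible coactivator PGC-1α, had 7.998 (Q7-Control), 7.64 (Q111-Control) and 8.07 (Q111-ASOs). Its differences were 0.36 (1.28-fold) and 0.43 (1.35-fold), the latter the highest of all members with ASOs. Ppargc1b, its relative PGC-1β, had 6.62, 6.32 and 5.94. The differences were 0.31 between the lines and -0.38 with ASOs, the latter the lowest of all members, and its mean signal of 6.29 was below the median of all genes. The factors they work with differed by at most 0.04. Nrf1, the nuclear respiratory factor, was equal at 8.20 on all 3 arrays and Gabpa, the DNA-binding subunit of GABP, at 10.05, and Esrra, the orphan receptor ERRα, had 8.25, 8.21 and 8.21. At 1.25-fold, a criterion chosen after the values were seen, 6 of 50 members were higher in Q7-Control (9.73% of all genes) and 0 lower (8.05%), namely Tfb2m, Cox5a, Cox7a1, Tfam, Uqcrc2 and Ppargc1a. With ASOs Ppargc1a was higher by this criterion (2.01% of all genes) and Ppargc1b lower (1.24%). Cox7a1 and Ppargc1b are not among the brighter genes. Of the 45 members that are, 5 were higher and 0 lower between the lines, against 14.8% and 13.5% of the brighter genes. With ASOs 1 of the 45 was higher and 0 lower, against 2.43% and 0.586%.

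**Figure D3:**
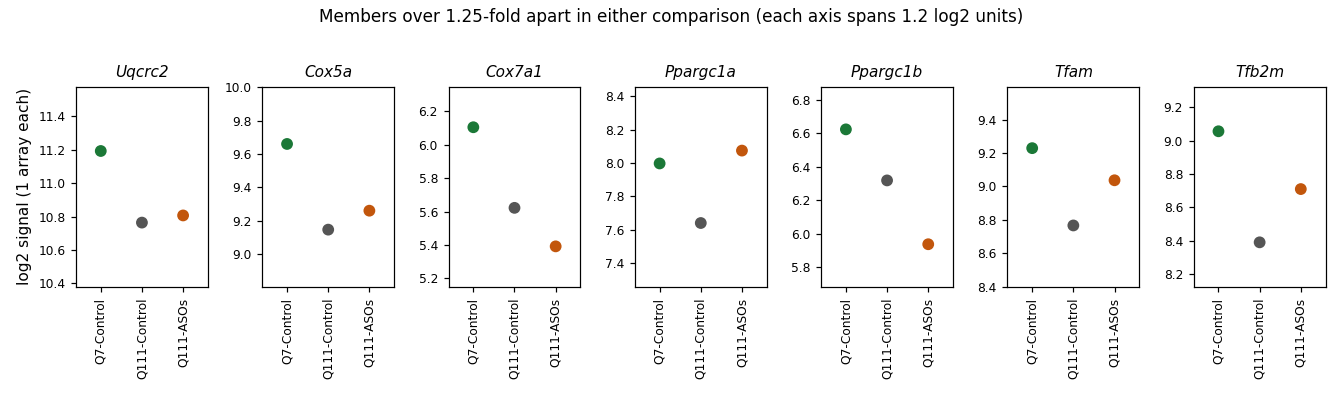
Log2 signal (y axis, 1.2 units in each panel) of the 7 members over 1.25-fold apart in either comparison, 1 array per condition. Q7-Control lies above Q111-Control in all 7 panels, while Q111-ASOs lies above Q111-Control for 5 genes and below it for Cox7a1 and Ppargc1b.

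Promoter sequences were read to show letters recognised by NRF1, GABPA and ERRα, whose genes are members, and by YY1, a partner of the coactivators that is not. Windows of 300 bases, from 250 bases before to 50 bases after the RefSeq start (GRCm38.p6), were found for 40 of the 51 genes, in 42 windows. The motifs searched on both strands were GCATGCGC (NRF1), CCGGAAG (GABPA), CAAGGTCA (ERRα) and AAGATGGC (YY1). NRF1 letters were in 8 of the 42 windows (19.0%, against 2.71% of 32851 windows of all genes) and GABPA letters in 11 (26.2%, against 8.86%). YY1 letters were in 4 (9.52%, against 2.75%) and ERRα letters in 1 (2.38%, against 1.56%). In Cox6a1 and Uqcrc1 the NRF1 letters were found on both strands at overlapping positions. Windows were not matched on base composition, and a match is a stretch of letters and not a site. Only exact letters were searched, so a window without a match may still hold a site. The 5 windows printed belong to genes of the mitochondrial transcription machinery, to cytochrome c as a carrier gene with NRF1 letters and to Cox5a, the respiratory subunit with the highest Q7-Control difference. Motif letters are in capitals and each sequence runs 5′ to 3′ on the strand of the gene.
Tfb2m (chr1:179546227-179546526, minus strand, NRF1 letters): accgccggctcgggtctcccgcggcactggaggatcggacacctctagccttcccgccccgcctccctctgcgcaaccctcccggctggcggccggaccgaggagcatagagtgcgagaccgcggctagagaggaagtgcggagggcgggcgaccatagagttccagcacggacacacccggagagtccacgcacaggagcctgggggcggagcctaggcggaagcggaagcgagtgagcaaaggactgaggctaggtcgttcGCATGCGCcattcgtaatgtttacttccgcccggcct
Tfam (chr10:71237995-71238294, minus strand, GABPA letters): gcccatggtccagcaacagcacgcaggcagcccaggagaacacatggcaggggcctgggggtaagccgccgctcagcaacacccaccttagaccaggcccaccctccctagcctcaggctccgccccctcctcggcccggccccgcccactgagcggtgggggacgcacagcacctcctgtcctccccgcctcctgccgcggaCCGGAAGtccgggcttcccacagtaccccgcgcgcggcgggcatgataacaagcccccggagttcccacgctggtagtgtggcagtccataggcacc
Polrmt (chr10:79746532-79746831, minus strand, NRF1 and GABPA letters, both reverse-complemented): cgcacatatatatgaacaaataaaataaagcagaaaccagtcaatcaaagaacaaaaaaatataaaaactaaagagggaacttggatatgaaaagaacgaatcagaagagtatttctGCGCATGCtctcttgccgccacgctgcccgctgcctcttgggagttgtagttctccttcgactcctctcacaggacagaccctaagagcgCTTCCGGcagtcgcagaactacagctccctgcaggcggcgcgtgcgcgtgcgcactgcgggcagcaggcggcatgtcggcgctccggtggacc
Cycs (chr6:50566520-50566819, minus strand, NRF1 letters): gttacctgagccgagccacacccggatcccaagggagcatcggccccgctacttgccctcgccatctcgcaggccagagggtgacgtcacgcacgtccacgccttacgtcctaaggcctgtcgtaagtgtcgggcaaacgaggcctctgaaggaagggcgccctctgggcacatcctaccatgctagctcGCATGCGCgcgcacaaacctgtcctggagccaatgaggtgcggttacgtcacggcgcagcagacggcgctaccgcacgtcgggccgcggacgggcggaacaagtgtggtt
Cox5a (chr9:57520982-57521281, plus strand, no motif letters): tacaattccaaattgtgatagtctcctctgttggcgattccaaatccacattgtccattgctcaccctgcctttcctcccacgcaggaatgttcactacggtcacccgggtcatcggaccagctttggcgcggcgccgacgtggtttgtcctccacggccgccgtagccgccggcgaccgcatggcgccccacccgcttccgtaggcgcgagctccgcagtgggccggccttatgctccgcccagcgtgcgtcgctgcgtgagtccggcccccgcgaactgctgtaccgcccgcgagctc

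Members with such letters included some with the largest differences and some with none. Tfb2m (NRF1 letters at position 13 from the start) was 1.59-fold and Tfam (GABPA letters at position -47) 1.38-fold higher in Q7-Control, whereas Polrmt, with both motifs, had the same signal on the 3 arrays. Sdhb carried both motifs and differed by 0.00 between the lines, and Cox6a1, which carried both as well, was lower in Q7-Control by a log2 difference of -0.19. Cox5a, Cox7a1 and Ppargc1a, also over 1.25-fold higher in Q7-Control, had windows without letters of any of the motifs, and Uqcrc2 had no window.

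**Figure D4:**
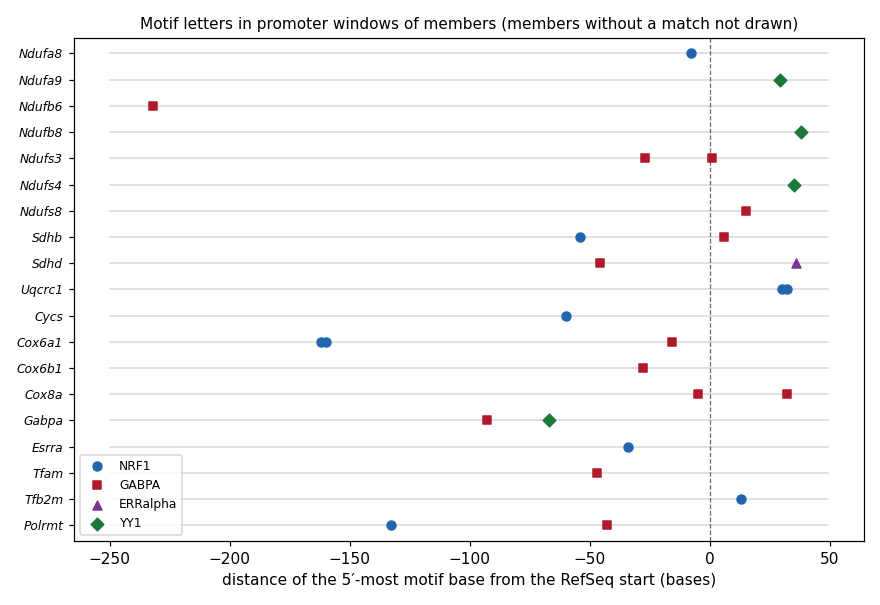
Position of motif letters (x axis, bases from the RefSeq start, with the start at the dashed line) in promoter windows of the 19 members that hold any (rows), with a symbol for each of the 4 motifs. The matches farthest upstream are in Ndufb6 at -232 and Cox6a1 at -162.

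Complex I, the NADH dehydrogenase, had as many subunits higher as lower in Q7-Control. Its 19 measured subunits (Ndufa4, named for this complex, is given with complex IV, where it is now placed) had a median difference of 0.00 in both comparisons and ranged from -0.27 to 0.25 between the lines and from -0.09 to 0.09 with ASOs. In Q7-Control 6 were higher, 6 lower and 7 equal, and with ASOs 14 of the 19 (73.7%) were exactly equal to Q111-Control. Of all genes 43.4% were equal between the lines and 49.4% with ASOs, and of the brighter genes 24.5% and 35.4%. Between the lines 29.7% of all genes were higher and 26.9% lower, and 37.9% and 37.7% of the brighter genes. The split depends on the scaling, and quantile normalization gave a complex I median of 0.03 between the lines. The highest subunit was Ndufs1, which carries iron-sulphur clusters of the electron-input arm, with 9.57 in Q7-Control and 9.32 in both STHdhQ111/Q111 cultures. Ndufb6, an accessory subunit of the membrane arm, had 10.22 in Q7-Control and 10.02 in both STHdhQ111/Q111 cultures. The lowest was Ndufa1, another small membrane-arm subunit, with 7.69, 7.96 and 7.87, followed by Ndufa2 with 9.35, 9.54 and 9.62. Of the catalytic core, Ndufs3 (7.92) and Ndufs8 (11.28) were equal on the 3 arrays, Ndufv1, which binds NADH, had 11.21, 11.14 and 11.14, and Ndufv2 had 11.14, 11.04 and 11.13. Ndufs4, an accessory subunit whose loss causes Leigh syndrome, was equal at 10.94. Ndufb3 (7.78), Ndufb9 (12.02) and Ndufc2 (12.12) were equal as well. The remaining accessory subunits differed little between the lines, namely Ndufa5 (-0.07), Ndufa8 (-0.03), Ndufa9 (-0.03), Ndufa10 (0.00), Ndufb5 (0.13), Ndufb8 (-0.14) and Ndufb10 (0.01).

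Complex II, succinate dehydrogenase, showed the least spread of the groups. Sdha, the flavoprotein that oxidises succinate, was equal at 11.09 on the 3 arrays, and Sdhd, a membrane anchor, at 9.69. Sdhb, the iron-sulphur subunit, had 9.49 on each array. Sdhc, the other anchor, had 10.19 (Q7-Control), 10.16 (Q111-Control) and 10.22 (Q111-ASOs). The largest difference in either comparison was that of Sdhc with ASOs, 0.06.

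Complex III and cytochrome c had the highest group median of the respiratory chain, 0.16 between the lines and 0.07 with ASOs. Uqcrc2, a core protein of the complex, led with 11.19 (Q7-Control), 10.76 (Q111-Control) and 10.81 (Q111-ASOs), a difference of 0.43 (1.35-fold) between the lines and of 0.04 with ASOs. Its partner core protein Uqcrc1 was unlike it, at 11.37, 11.38 and 11.42. Cyc1, the cytochrome c1 subunit, had 11.39, 11.17 and 11.24, and Cycs, the mobile carrier itself, 11.40, 11.16 and 11.29. Cycs was read by 5 rows, and their differences ran from 0.15 to 0.29 between the lines and from 0.02 to 0.36 with ASOs. Among these rows 1 pair holds the same values and is not 2 separate readings, and since Cycs has processed pseudogenes its value is uncertain. Uqcrfs1, the Rieske iron-sulphur protein, had 8.71, 8.60 and 8.67. Uqcrb, a small subunit, had 12.30, 12.41 and 12.56 and was the lowest of this group in Q7-Control against Q111-Control, at -0.11. With ASOs all 6 genes were above Q111-Control, by 0.04 to 0.15, while 27.7% of all genes and 41.0% of the brighter genes were higher with ASOs.

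In complex IV, cytochrome c oxidase, single subunits went in different directions. The group median was 0.00 between the lines and -0.05 with ASOs. Cox5a, a subunit on the matrix side of the enzyme, had 9.66 (Q7-Control), 9.15 (Q111-Control) and 9.26 (Q111-ASOs). Its difference of 0.51 (1.43-fold) between the lines was the second highest of all members, and that with ASOs was 0.11. Cox5b, the zinc-binding subunit, was equal at 10.64 on the 3 arrays. Ndufa4, Cox8a, Cox6a1 and Cox4i1 each had their highest signal in Q111-Control. Ndufa4 had 10.47, 10.73 and 10.63, Cox8a 12.32, 12.51 and 12.43, Cox6a1 12.73, 12.92 and 12.83, and Cox4i1, the main form of the largest nuclear subunit, 11.09, 11.20 and 11.12. Their differences were between -0.26 and -0.11 between the lines and between -0.10 and -0.08 with ASOs. Cox6b1, which lies at the dimer interface, had 10.17, 10.07 and 10.14, and Cox7a2 11.47, 11.47 and 11.46.

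Complex IV has tissue-restricted forms of some subunits, and each form was compared with itself across the arrays, since different probes read the forms of a pair. The lung- and hypoxia-linked Cox4i2 was equal at 6.09 and the heart and skeletal muscle form Cox6a2 at 6.07 on all 3 arrays. The testis form Cox6b2 had 5.74 (Q7-Control), 5.63 (Q111-Control) and 5.48 (Q111-ASOs). Cox7a1, the heart and skeletal muscle form of subunit 7a, had 6.10, 5.62 and 5.39, a difference of 0.48 (1.40-fold) between the lines and of -0.23 with ASOs. No background level was measured for these genes, so whether they were expressed, and the true size of their differences, is not known here. Of 9 striated muscle markers 4 were higher in Q7-Control, 4 lower and 1 equal. Tnnt2 was 3.32-fold higher and Des differed by -0.85 on the log2 scale, and the part of these markers in the Cox7a1 value was not tested.

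**Figure D5:**
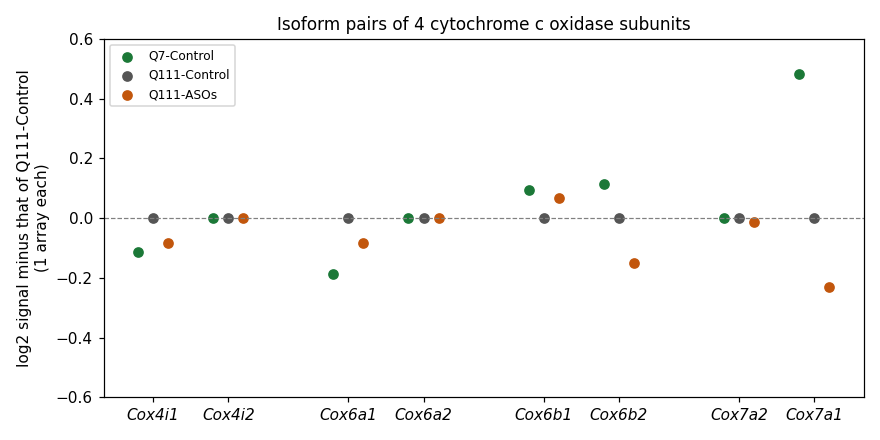
Log2 signal of each array minus that of Q111-Control for the same gene (y axis), so that Q111-Control lies at 0 by construction, for 4 pairs of cytochrome c oxidase subunit forms, with the widely expressed form on the left and the tissue-restricted form on the right of each pair. Cox7a1 spans the widest range, from 0.48 in Q7-Control to -0.23 in Q111-ASOs, while Cox4i2 and Cox6a2 are at 0 throughout.

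Other nuclear genes of the complexes were read from separate lists, and none was over 2-fold apart in either comparison. The lists held 13 further genes of complex I, 9 of complexes III and IV and 17 of complex V, its inhibitory factor included. Differences of that size were uncommon across the 22180 genes too. Between the lines their share was 2.53% for a higher signal in Q7-Control and 2.03% for a lower one. With ASOs it was 0.104% and 0.0271%. A count of 0 in lists this short therefore says little about these genes. The median difference of each list between the lines was 0.00 and the means were -0.06, -0.06 and -0.02, against 0.06 for the members. At 1.25-fold, 1 of the complex I list was higher in Q7-Control and 2 lower. The counts were 0 and 1 for the complex III and IV list, 1 and 0 for the complex V list, and 6 and 0 for the 50 members. Of all genes 9.73% were higher and 8.05% lower, and of the brighter genes 14.8% and 13.5%. Counts this small do not set the members apart from these lists. Cox7c, a small subunit of complex IV, was the 1 gene of these lists over 1.5-fold apart (3.88% of all genes lower between the lines, 5.2% higher). It had 6.68 in Q7-Control and 7.54 in both STHdhQ111/Q111 cultures, a difference of -0.87. Complex V, the ATP synthase, ranged from -0.28 to 0.34 between the lines and from -0.07 to 0.37 with ASOs.

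Of the 13 subunit genes of mitochondrial DNA, 10 had a row of their own. Between the lines 7 were higher in Q7-Control, 1 lower and 2 equal, with a median difference of 0.01. ND6, a complex I subunit and the 1 gene of this list encoded on the light strand, was the exception, with 9.69, 8.88 and 9.08, or 1.76-fold higher in Q7-Control and 0.21 higher on the log2 scale with ASOs. It was the 1 gene of the list over 1.5-fold apart (5.2% of all genes higher), and whether its probes read a single strand was not tested. The other 9 genes ranged from -0.03 to 0.33 between the lines. With ASOs all 10 were above Q111-Control, by 0.04 to 0.21 with a median of 0.10. Of all genes 27.7% were higher with ASOs, and of the brighter genes 41.0%. Quantile normalization left 9 of the 10 higher and 1 lower, where 56.7% of all genes were then higher. These 10 transcripts come from a shared genome and long common precursors and are not separate readings. Apart from ND6 their signals lay between 12.81 and 13.65, near the top of the table, and how far the array can resolve differences there was not tested. Nuclear copies of mitochondrial DNA could add to these signals, which was not tested.

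Among 36 assembly factors, 1 was over 1.5-fold higher in Q7-Control (5.2% of all genes) and 1 lower (3.88%), and 0 were counted with ASOs (0.455% and 0.153%). Higd1a, a small hypoxia-induced protein that associates with complex IV, had 8.20 (Q7-Control), 7.35 (Q111-Control) and 7.77 (Q111-ASOs), or 1.79-fold and 1.33-fold. Uqcc1, an assembly factor of complex III, had 7.08, 7.69 and 7.86, a difference of -0.61 between the lines and 0.17 with ASOs. The 13 genes of mitochondrial DNA replication and expression outside the list had a median of 0.00 in both comparisons and none over 1.5-fold apart. Of 16 further nuclear regulators, Prkaa2 alone was over 2-fold apart (2.53% of all genes higher and 2.03% lower between the lines). This gene encodes a catalytic subunit of AMPK, a kinase that acts upstream of PGC-1α, and had 9.11 (Q7-Control), 7.91 (Q111-Control) and 7.89 (Q111-ASOs), 2.28-fold higher in Q7-Control and -0.02 on the log2 scale with ASOs. Whether it bears on any member was not tested.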

How the data were processed

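The deposited table holds log2 signals per transcript cluster, which the authors made with Partek software, as the submitters' processing notes name it. The version, background correction, normalization, summarization and genome build are each not given in the sources used here. That the deposited values are log2 was taken from their range, 2.12 to 14.10. Rows with 1 gene symbol (23521 of 41345) were named through the array annotation, with symbols updated through a RefSeq table of GRCm38.p6 (23328 matched). Left out were 1820 rows that carry several symbols and 16004 for which no gene is listed. The row with the highest mean of the 3 arrays was kept for each of 22180 genes. Among the members, 4 have several rows.

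Differences were taken on the log2 scale and counted at 2-fold and 1.5-fold over all genes, with no p-value, since each group has 1 array. The members and gene lists were chosen with earlier results of these data known. Every member may be named, and of each other list up to 3 genes over 1.5-fold in either comparison. Cell type markers, 4 genes of the tricarboxylic acid cycle, and Pdha1, Pdhb and Dlat were named outside this rule, after their values were seen. Subunit genes of mitochondrial DNA were matched by their RefSeq symbols (ND1 and the like). Alternatives were centring of the arrays, quantile normalization, averaging the rows of a gene, a minimum signal, members equal on 3 arrays left out and other fold criteria. Counting was tested on simulated data. Only promoter windows carry coordinates, those of the RefSeq table. The software was Python 3.11.15 with pandas 2.3.3, numpy 2.4.6 and, for plots, matplotlib 3.10.9.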

Additional observations from a re-analysis of the deposited data

How the results depend on the processing

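No paired analysis was possible because the comparisons rest on 1 array a side, and no replicate could be left out. A log2 value counted as moved when it shifted by 0.129 or more, the SD of the Q111-ASOs minus Q111-Control differences over all genes, and a count when it left 1.5 times. Counts over 2-fold stayed at 0 under each scaling, row and filter tried. The filters only drop members and could not change a count of 0, yet they are among the alternatives counted below. With a 1.5-fold criterion 1 member was higher in Q7-Control, and with 1.25-fold, chosen after the values were seen, 6 were, with 1 higher and 1 lower with ASOs. The changed criterion accounts for these counts, which also shift with the scaling. At 1.25-fold 7 members were higher in Q7-Control under centring and under quantile normalization, where Ppargc1b was added. With ASOs 2 were higher under centring, where Tfb2m was added. Without members equal on 3 arrays the median was 0.31 for coactivators and nuclear regulators in Q7-Control minus Q111-Control, and 0.46 there and 0.27 with ASOs for mitochondrial transcription factors, since removing zeros leaves fewer genes. The other 91 of 98 alternative counts and medians stayed within that limit, though averaging the rows of Tfb2m lowered the median of the mitochondrial transcription factors from 0.23 to 0.13 between the lines and from 0.14 to 0.05 with ASOs, and left 0 members over 1.5-fold higher in Q7-Control. Of 300 alternative values of single members 298 stayed and 2 moved, both for Tfb2m with the mean of its rows (0.25 and 0.11), but most members have 1 row and cannot move under that choice. Centring adds 0.06 to every Q7-Control minus Q111-Control difference and 0.02 to those with ASOs. Both are below the limit of 0.129, so no single value or median could move under centring. That they stayed there was fixed in advance. Centring turned the sign of 3 and 2 members, none with a difference above 0.031, and gave the equal members a positive sign.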

Other observations

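A list for the tricarboxylic acid cycle, which feeds the chain with NADH and succinate, had a median above that of all genes in Q7-Control minus Q111-Control. It also holds Pdha1, Pdhb and Dlat of the pyruvate dehydrogenase complex, which supplies the cycle. Each of these was higher in Q7-Control (by 0.05, 0.23 and 0.27), so the counts and median below are not those of the cycle alone. Of 16 measured genes, 10 were higher in Q7-Control, 4 lower and 2 equal, with a median log2 difference of 0.10, beside 29.7% higher and 26.9% lower over all genes. All 16 were among the brighter genes, of which 37.9% were higher and 37.7% lower. Under quantile normalization 13 were higher and 3 lower, where 69.9% of all genes were then higher and 29.9% lower. None was over 1.5-fold apart, and 4 were over 1.25-fold higher (9.73% of all genes and 14.8% of the brighter genes). These were Idh3a, the catalytic subunit of NAD-dependent isocitrate dehydrogenase (10.33 in Q7-Control and 9.75 in Q111-Control, 1.49-fold), Dlst of the oxoglutarate dehydrogenase complex (10.76 and 10.36), fumarase Fh1 (10.22 and 9.87) and citrate synthase Cs (12.70 and 12.37), which were named after their values were seen. With ASOs 6 of the 16 genes were higher, 6 lower and 4 equal, all between -0.07 and 0.05.

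The 10 measured genes of mitochondrial fusion and fission ranged from -0.24 to 0.06 between the lines and from -0.05 to 0.03 with ASOs. Of 10 carrier, channel and uncoupling genes, 7 were higher in Q7-Control and 1 lower, with a median difference of 0.10 and none over 1.5-fold, beside 29.7% higher and 26.9% lower over all genes and 37.9% and 37.7% of the brighter genes. Under quantile normalization 9 were higher and 1 lower, where 69.9% of all genes were then higher and 29.9% lower.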
